A study of Mus musculus with 12 samples.

Results

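The comparison described here set liver from Lpin1-/- mice against liver from wild-type (WT) mice at the end of a 16 h fast. Its libraries were chosen by their labels alone, 3 fasted Lpin1-/- and 3 fasted WT livers, which are 6 of the 12 RNA-seq libraries of the series, and the genotypes were compared across 11507 genes. The mice were males of the BALB/cByJ strain, 2 to 8 months old and fed chow, and each was caged singly during the fast. The Lpin1-/- mice carry the spontaneous fatty liver dystrophy (fld) mutation in every tissue, so loss of lipin 1 was not confined to liver. The other 6 libraries came from mice of the same 2 genotypes that ate for 5 h after such a fast. Those refed libraries shared the estimate of the spread and served to show where a genotype difference changed with feeding, and since refed livers were taken later in the day, feeding and time of day cannot be told apart. Each library is 1 liver sample, and the p-values measure the spread between samples, pooled over the 4 groups. In log2 values the median standard deviation was 0.335 in fasted WT and 0.281 in fasted Lpin1-/- liver. It was smaller in the refed groups, 0.231 in WT and 0.219 in Lpin1-/- liver. In whole liver, fewer cells of a type and less RNA per cell cannot be told apart.

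Lipin 1 is an enzyme that removes phosphate from phosphatidate to give diacylglycerol, the precursor of triglycerides and of several phospholipids. It also enters the nucleus, where it acts with the coactivator PGC-1α and the fatty acid receptor PPARα on genes of fatty acid oxidation. During a fast the liver takes up fatty acids from adipose tissue, oxidizes them in mitochondria and peroxisomes, makes ketone bodies for other organs and turns amino acids into glucose.

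Values are RPKM, reads scaled by gene length and by library size as the authors deposited them, and differences are Lpin1-/- minus WT on the log2(RPKM + 1) scale with their standard error (SE). A gene was called where limma gave a Benjamini-Hochberg adjusted p under 0.05, and every adjusted p below is from that fit unless another is named. The fasted libraries held 74.0 to 85.1 M reads in genes. Lpin1 itself stood at 21.96, 0.726 and 1.76 RPKM in the WT libraries and at 0.0597, 0.0566 and 0.0368 RPKM in the Lpin1-/- libraries. The groups did not overlap, but WT replicate 1 was far above the other WT livers, and the difference of -2.19 (SE 0.72) had an adjusted p of 0.0562. Lpin1 was called in 6 of 21 alternative fits: without WT replicate 1 (difference -1.05, adjusted p = 0.045) or 2 (-2.92, adjusted p = 0.0154), with a pseudocount of 0.1 (-4.42, adjusted p = 0.00797), after rescaling by the median ratio (adjusted p = 0.0422), with a replicate block (adjusted p = 0.0493) and with library quality weights (-1.44, adjusted p = 0.0027). The reads behind these levels were 6629, 206 and 511 in WT and 17, 17 and 11 in Lpin1-/- liver. WT replicate 1 also stood apart across all genes, with a Pearson correlation of 0.942 and 0.961 to the other WT livers, whereas those 2 correlated at 0.99. Summed hepatocyte markers ran from 78800 to 92500 RPKM in WT and from 72700 to 95700 RPKM in Lpin1-/- liver, which matches the labelled tissue. The 13 genes of the mitochondrial genome were listed at 0 in every library and were not analyzed.

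Fasted Lpin1-/- liver differed from fasted WT liver in 2168 of 11507 genes (18.8%). Of these, 648 (5.63% of the genes tested) rose and 1520 (13.2%) fell. The libraries of the 2 genotypes did not overlap in 3788 of the 11507 genes (32.9%), and these included 2140 of the 2168 called genes. A lack of overlap, given for single genes below, thus adds little to a call. For genes named among the largest changes it was a condition of being named. Genes that rose had a median difference of 1.17 and genes that fell a median of -0.99. The median over all genes tested was -0.14, so the distribution as a whole lay slightly below 0. When each library was rescaled by its median ratio, that median was -0.04 and the calls were 907 higher and 1303 lower, which moved the higher share of calls from 29.9% to 41.0%. With the spread taken from the 6 fasted libraries alone, 1011 genes were called instead of 2168. The count also rested on single livers: without WT replicate 3 it was 1037, and 1031 of those genes were among the 2168. Where a count of 2 or more in a gene list moved by over 1.5 times when 1 fasted liver was left out, the counts are given below as the number that rose and the number that fell.

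A difference above 3 on the log2 scale was found for 34 genes that rose and 17 that fell, whereas a difference above 1 was found for 407 that rose and 755 that fell. Genes that fell had a median of 11.8 RPKM in fasted WT liver, genes that rose 5.31, and all genes 6.63. The plot of the difference against the level shows the spread of both.

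**Figure D1:**
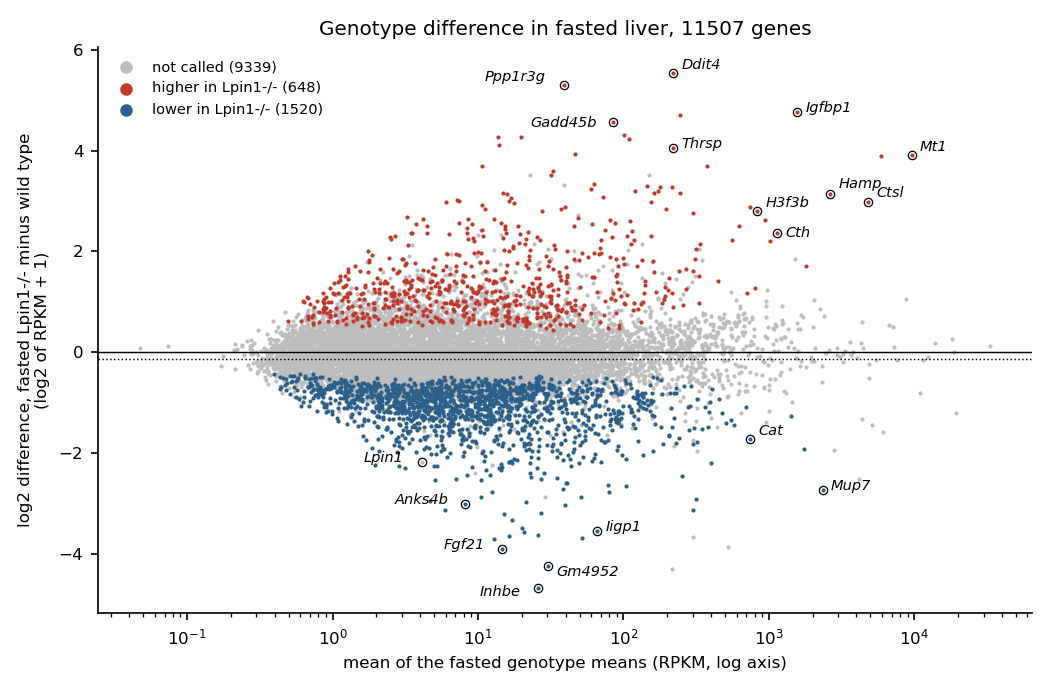
Difference between fasted Lpin1-/- and WT liver (log2 of RPKM + 1, vertical axis) against the mean of the fasted genotype means (RPKM, log axis) for 11507 genes, with 648 genes that rose in red, 1520 that fell in blue and the rest in gray. The dotted line is the median of -0.14, and the called genes above 3 (34 that rose) outnumber the called genes below -3 (17 that fell).

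The 3 most abundant genes that rose were Mt1, Mt2 and Ctsl. Mt1, a metallothionein that binds zinc and copper, stood at 2299, 1008 and 675 RPKM in WT and at 12544, 20880.1 and 20116 RPKM in Lpin1-/- liver, a difference of 3.90 (SE 0.53, adjusted p = 0.000896). Its neighbor Mt2 ran in parallel, from 1555, 639 and 389 RPKM to 8722, 12861 and 11316 RPKM (3.89, adjusted p = 0.00165). The groups were well apart for both, although near-identical metallothionein copies may share reads. Together Mt1 and Mt2 took 0.0263% to 0.0925% of the reads in genes in WT and 0.553% to 0.852% in Lpin1-/- liver. Ctsl, which encodes the lysosomal protease cathepsin L, rose from 1412, 929 and 812 RPKM to 5495, 8079.6 and 12004 RPKM (2.99, adjusted p = 0.000563).

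Among the enzymes at or around the step that lipin 1 catalyzes, the paralogs Lpin2 and Lpin3 did not pass the test. Lpin2 stood at 46.4, 10.2 and 13.6 RPKM in WT and at 29.5, 46.1 and 45.03 RPKM in Lpin1-/- liver, and 1 WT liver, replicate 1, was above the Lpin1-/- livers (difference 1.03, adjusted p = 0.136). Lpin2 was called without WT replicate 1 (adjusted p = 0.00533), when its difference was 1.66. Of 11 genes of triglyceride synthesis tested, 1 rose (9.09%, against 5.63% of all genes) and 3 fell (27.3%, against 13.2%), with a median difference of -0.21 against -0.14 over all genes. The 4 were all acylglycerol-phosphate acyltransferases, which make phosphatidate, the substrate of lipin 1. Agpat5 rose by 1.02 (adjusted p = 0.0071, but 0.0539 with the 6 fasted libraries alone). Agpat1, Agpat2 and Agpat3 had differences of -0.87, -0.95 and -0.92 (adjusted p = 0.0327, 0.0203 and 0.036). With the 6 fasted libraries alone the adjusted p was 0.105 for Agpat1 and 0.122 for Agpat3, whereas Agpat2 kept its call. Of 22 alternative fits, 1 did not call Agpat5, whereas 8, 5 and 9 did not call Agpat1, Agpat2 and Agpat3. The counts were 1 and 1 without WT replicate 1 or Lpin1-/- replicate 1, and 1 and 0 without WT replicate 3. Neither Dgat1 (0.29, adjusted p = 0.198) nor Dgat2 (-0.69, adjusted p = 0.145), which add the last acyl chain of triglyceride, passed the test.

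Of 19 genes of phospholipid synthesis, 2 rose (10.5%, against 5.63% of all genes) and 4 fell (21.1%, against 13.2%), with a median of -0.33. The counts were 1 and 1 without WT replicate 3 or Lpin1-/- replicate 1, and 1 and 2 without Lpin1-/- replicate 2. A kinase and a transferase of the ethanolamine branch were among the calls. Etnk2, an ethanolamine kinase, stood at 80.6, 75.1 and 80.3 RPKM in WT and 187, 191 and 225 RPKM in Lpin1-/- liver (1.34, SE 0.15, adjusted p = 0.000363). Ept1, the ethanolaminephosphotransferase that consumes diacylglycerol, stood at 15.6, 6.09 and 9.72 and 2.79, 3.38 and 3.005 RPKM (-1.42, SE 0.28, adjusted p = 0.0058). Neither pair of groups overlapped, and both calls held in every alternative fit that was run.

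Of 23 genes of mitochondrial fatty acid oxidation tested, 14 fell (60.9%, against 13.2% of all genes), none rose and 9 were not called. All 23 had a negative difference, with a median of -1.17. Rescaling by the median ratio left 11 calls and a median of -1.04, and leaving out WT replicate 3 left 8 calls. The genes that fell spanned fatty acid activation and import, the acyl-CoA dehydrogenases, the trifunctional protein and electron transfer. Acadm, the medium-chain acyl-CoA dehydrogenase, stood at 309, 321 and 329 RPKM in WT and at 118, 125 and 143 RPKM in Lpin1-/- liver, groups that were tight and far apart (-1.31, SE 0.24, adjusted p = 0.00413). Hadhb, the β subunit of the trifunctional protein for long chains, stood at 75.4, 76.8 and 91.8 RPKM in WT and at 23.9, 26.5 and 38.4 RPKM in Lpin1-/- liver (-1.45, adjusted p = 0.00286). Etfdh, which passes electrons from the acyl-CoA dehydrogenases to ubiquinone, stood at 223, 191 and 218 and 76.04, 99.3 and 106 RPKM (-1.17, adjusted p = 0.00329).

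The carnitine shuttle, which carries long chains into mitochondria, was less clear. Cpt2, the inner membrane carnitine palmitoyltransferase, fell by 1.29 on the log2 scale (adjusted p = 0.0179), a call that was lost without WT replicate 3 or Lpin1-/- replicate 1 (adjusted p = 0.0589 to 0.0758). Cpt1a, the rate-limiting outer membrane enzyme, stood at 237, 56.3 and 92.5 RPKM in WT and at 25.00, 55.5 and 55.3 RPKM in Lpin1-/- liver, and its difference of -1.32 had an adjusted p of 0.0926 (called without WT replicate 2 (adjusted p = 0.0329)). In the refed livers, 3 of the 23 genes fell and none rose (background 2.6% higher and 4.07% lower), with a median of -0.49. For none of the 23 did the change of the genotype difference with feeding pass the test (background 1.28%), and 4 had an unadjusted p under 0.05.

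Peroxisomal oxidation, which shortens very long chains, differed in the same direction. Of 17 genes tested 13 fell (76.5%, against 13.2% of all genes) and none rose, with a median of -1.16. That count moved more than the mitochondrial one, to 7 after rescaling and to 6, 7 and 8 without WT replicate 3, Lpin1-/- replicate 1 and Lpin1-/- replicate 2. Ehhadh, the bifunctional enzyme, stood at 220.0, 188 and 248 RPKM in WT and at 53.4, 57.3 and 46.5 RPKM in Lpin1-/- liver (-2.04, SE 0.27, adjusted p = 0.000854). Abcd2 and Abcd3, transporters that bring fatty acyl-CoA into peroxisomes, had differences of -1.72 (adjusted p = 0.00121) and -1.74 (adjusted p = 0.00147). Abcd2 was the scarcer of them, at 4.63, 2.09 and 4.39 RPKM in WT and 0.316, 0.403 and 0.410 RPKM in Lpin1-/- liver.

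Of 6 genes of ketone body synthesis and export, 1 rose and 3 fell. Bdh1, which interconverts the 2 main ketone bodies, stood at 130.3, 173 and 239.8 RPKM in WT and at 43.5, 24.8 and 17.8 RPKM in Lpin1-/- liver (-2.67, SE 0.35, adjusted p = 0.000836). Acat1, which condenses 2 acetyl-CoA, had a difference of -1.83 (adjusted p = 0.00286). Slc16a6, a transporter that exports ketone bodies from liver, moved the other way, from 1.51, 1.65 and 1.51 RPKM to 6.75, 6.62 and 5.13 RPKM (1.48, adjusted p = 0.000399). None of these 3 pairs of groups overlapped, and all 3 calls held in every alternative fit.

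**Figure D2:**
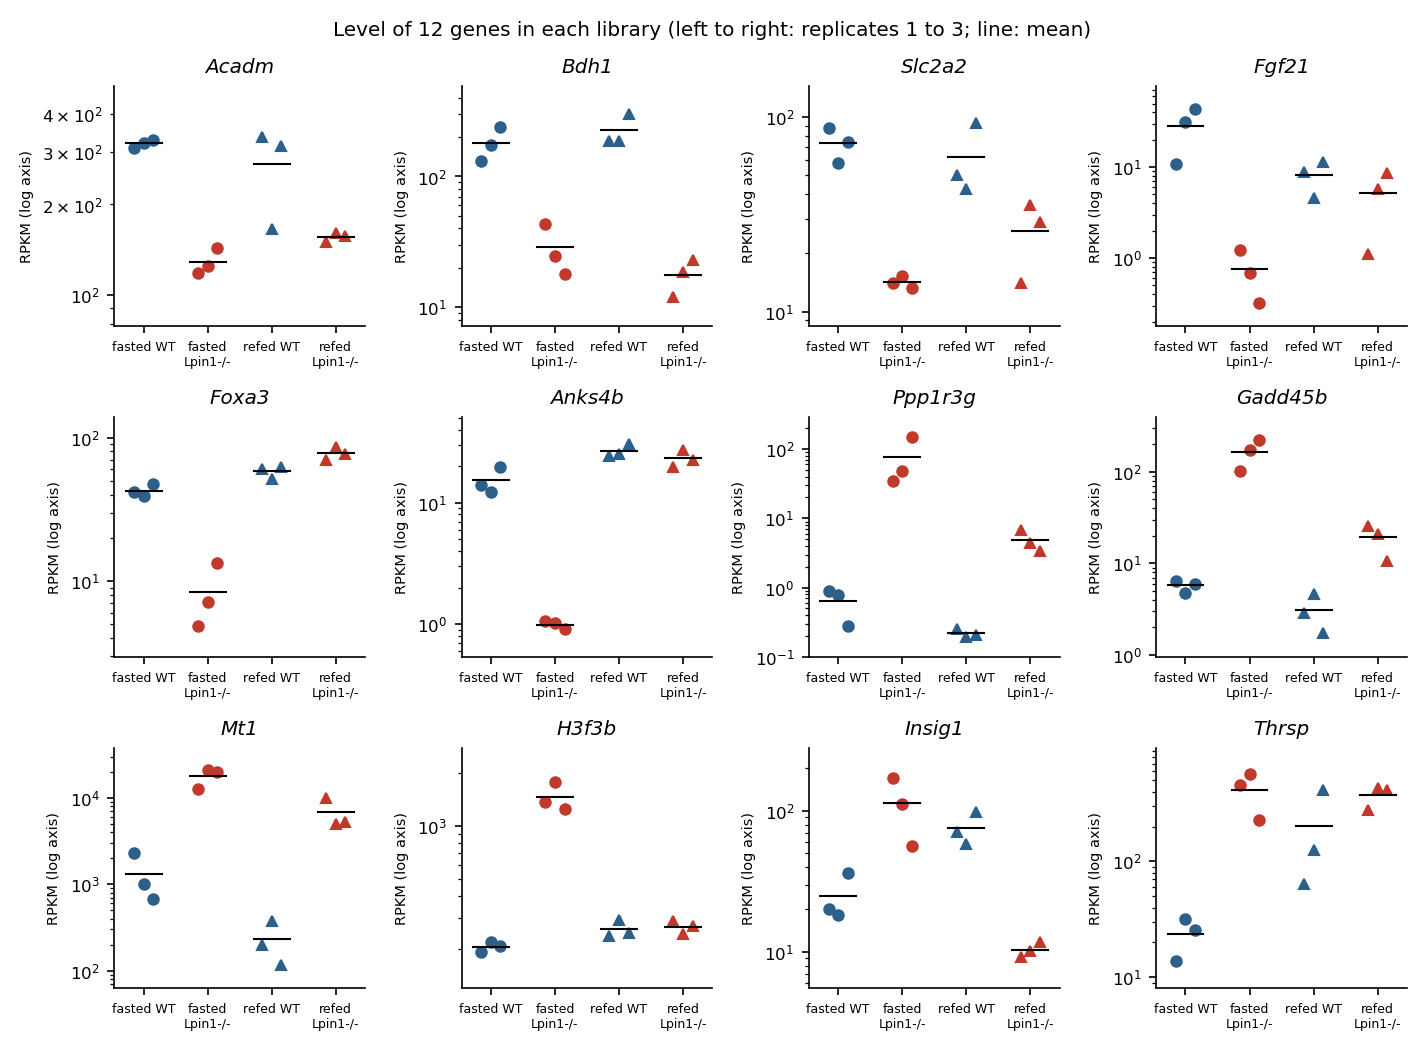
RPKM (log axis, vertical) of 12 genes in each of the 12 livers, where circles are fasted and triangles refed livers, blue is WT and red Lpin1-/-, and the line is the mean of each group of 3. Acadm, Bdh1, Slc2a2 and Fgf21 are lower and Mt1, Gadd45b and Thrsp higher in all 3 fasted Lpin1-/- livers than in any fasted WT liver.

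Other targets of PPARα did not share a direction. Of 25 tested, 4 rose and 6 fell, with a median of -0.88. Fgf21, a fasting hormone made in liver, stood at 10.8, 30.95 and 43.6 RPKM in WT and at 1.24, 0.687 and 0.323 RPKM in Lpin1-/- liver (-3.90, SE 0.59, adjusted p = 0.00155), without overlap. Vnn1, a pantetheinase, stood at 8.54, 22.1 and 45.3 and 0.495, 0.728 and 0.780 RPKM (-3.70, adjusted p = 0.00138). Mgll, the lipase for monoglycerides, had a difference of -2.41 (adjusted p = 0.00534), and Aldh3a2, a fatty aldehyde dehydrogenase, one of -2.21 (adjusted p = 0.000858). The increases were Pdk4, Plin5, Hilpda and Txnip. Pdk4, a kinase that keeps pyruvate out of oxidation, stood at 1.98, 0.898 and 1.55 RPKM in WT and at 7.58, 21.6 and 17.4 RPKM in Lpin1-/- liver (2.65, adjusted p = 0.000901). Txnip, a thioredoxin-binding protein that limits glucose uptake, rose by 3.29 (adjusted p = 0.000358). The ω-hydroxylases Cyp4a10 and Cyp4a14 had large differences of -3.67 and -4.31 but a wide spread, with adjusted p of 0.069 and 0.0624, and near-identical Cyp4a genes may share reads. Cyp4a14 was called without Lpin1-/- replicate 3 (adjusted p = 0.0354) and Cyp4a10 without Lpin1-/- replicate 3 (adjusted p = 0.0409). In Cyp4a14 the WT livers ran from 306 to 429.7 RPKM and the Lpin1-/- livers from 1.36 to 99.2 RPKM.

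As examples of sequence context, the 250 bases upstream of the RefSeq start are given for an oxidation enzyme, a hepatokine and an immediate early gene (described below). Each holds a match to a searched motif. Most genes in the lists of the oxidation enzyme and the immediate early gene lack the motif searched for there (shares below), so these examples are not typical. Capitals mark every match, on either strand, to the 3 motifs searched: in Acadm (chr3:153944644-153944893, minus strand, GRCm38.p6) the nuclear receptor core motif AGGTCA, in Fgf21 (chr7:45615491-45615740, minus strand) the E-box CACGTG bound by basic helix-loop-helix factors, and in Dusp1 (chr17:26508473-26508722, minus strand) the cAMP response element TGACGTCA and, after it, a further E-box. The sequences are written 5′ to 3′ on the gene's own strand, and a match is a description, not a site.
Acadm: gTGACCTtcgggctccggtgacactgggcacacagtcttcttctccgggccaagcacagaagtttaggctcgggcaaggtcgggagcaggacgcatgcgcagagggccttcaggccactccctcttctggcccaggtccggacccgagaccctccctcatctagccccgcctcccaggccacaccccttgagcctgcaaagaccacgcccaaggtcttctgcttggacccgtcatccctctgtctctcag
Fgf21: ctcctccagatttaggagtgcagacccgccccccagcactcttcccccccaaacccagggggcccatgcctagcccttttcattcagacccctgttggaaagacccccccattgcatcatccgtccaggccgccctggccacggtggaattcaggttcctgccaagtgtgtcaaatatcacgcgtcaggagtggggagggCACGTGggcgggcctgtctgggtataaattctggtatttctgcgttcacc
Dusp1: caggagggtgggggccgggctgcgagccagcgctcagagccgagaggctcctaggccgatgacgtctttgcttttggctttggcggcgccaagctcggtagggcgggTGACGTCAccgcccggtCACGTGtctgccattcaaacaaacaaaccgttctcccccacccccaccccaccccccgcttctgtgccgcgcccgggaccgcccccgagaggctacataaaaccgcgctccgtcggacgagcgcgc

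In promoters that run from 250 bases before to 50 after the start, the core motif was found in 16.3% of 32851 RefSeq promoters. All other shares count genes, where a gene has a motif if any of its promoters holds it, so they are not directly comparable with that value. The core motif was found in 15.6% of 8752 tested genes with a promoter, in 18.5% of 496 genes that rose and in 16.8% of 1183 genes that fell. It was present in 4 of 20 genes of the mitochondrial oxidation list, 3 of 13 of the peroxisomal list and 5 of 18 of the other PPARα targets. The direct repeat of AGGTCA with 1 base between the copies, the arrangement read by PPARα with its partner RXR, was found in 0.0343% of tested genes and in none of these 3 lists. The cAMP response element was found in 3.54% of tested genes, in 5.85% of genes that rose and in 2.96% of genes that fell. For the E-box the shares were 11.9%, 11.5% and 10.2%. These shares were not tested.

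A pair of activin genes fell with Fgf21. Inhbe, which encodes the activin E subunit, stood at 17.9, 51.3 and 84.03 RPKM in WT and at 1.05, 0.802 and 0.363 RPKM in Lpin1-/- liver (-4.67, adjusted p = 0.000836), and the neighboring Inhbc had a difference of -2.52 (adjusted p = 0.00103). Gdf15, a stress hormone that curbs appetite, rose from 2.51, 3.39 and 4.74 RPKM to 23.4, 44.8 and 13.2 RPKM (2.49, SE 0.46, adjusted p = 0.00438). Of 19 genes in that list, 2 rose (10.5%, against 5.63% of all genes) and 3 fell (15.8%, against 13.2%), with a median of -0.24. The counts were 1 and 4 without WT replicate 2, and 1 and 3 without WT replicate 3 or Lpin1-/- replicate 2 or 3. In the list of the growth hormone axis, Igfals, which carries IGF-1 in blood, fell to 10.98, 15.01 and 5.42 RPKM from 50.2, 68.3 and 61.01 RPKM (-2.49, adjusted p = 0.00165), whereas Igf1 had a difference of 0.15 (adjusted p = 0.652).

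Another group joins acyl groups to glycine. Of 8 glycine acyltransferase and medium-chain acyl-CoA synthetase genes tested, 6 fell (75.0%, against 13.2% of all genes) and none rose (median -1.39), and 4 fell after rescaling. Gm4952, a glycine acyltransferase-like gene, stood at 35.04, 52.99 and 87.7 RPKM in WT and at 1.52, 1.78 and 2.62 RPKM in Lpin1-/- liver, and Glyat, the glycine acyltransferase of mitochondria, stood at 220.5, 394 and 329 and 114, 99.7 and 80.6 RPKM. The differences were -4.24 (adjusted p = 0.000286) and -1.64 (adjusted p = 0.00373). Acsm5, a medium-chain acyl-CoA synthetase, had a difference of -1.63 (adjusted p = 0.000456). These genes lie in families of similar sequence, and reads shared between copies may blur single values.

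Proteins of the lipid droplet and its lipases were divided. Of 19 tested, 4 rose (21.1%, against 5.63% of all genes) and 5 fell (26.3%, against 13.2%), with a median of 0.14. The counts were 3 and 3 without WT replicate 3. Pnpla2, the lipase that begins triglyceride breakdown, stood at 80.97, 32.6 and 43.9 RPKM in WT and at 145, 301 and 331 RPKM in Lpin1-/- liver (2.30, SE 0.36, adjusted p = 0.00197). Hilpda, which inhibits that lipase, also rose, from 6.66, 10.05 and 14.2 RPKM to 142, 56.4 and 132 RPKM (3.25, adjusted p = 0.000358), as did Plin5, a droplet coat protein of oxidative tissues (1.70, adjusted p = 0.00452). The decreases included Lipa, the lysosomal acid lipase (-1.50, adjusted p = 0.000663), and Cideb, which enlarges droplets and lipoproteins (-1.48, adjusted p = 0.000654). Plin2, the commonest droplet coat of hepatocytes, had a difference of -1.55 (adjusted p = 0.0404), lost without WT replicate 2 or 3 or Lpin1-/- replicate 1 or 3 (adjusted p = 0.0599 to 0.158).

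In fatty acid synthesis 2 of 15 genes rose (13.3%, against 5.63% of all genes) and 2 fell (13.3%, against 13.2%), with a median of -0.34. The balance depended on single livers, with 3 and 1 without WT replicate 1 or Lpin1-/- replicate 3, 1 and 4 without WT replicate 2, 1 and 1 without WT replicate 3, 2 and 1 without Lpin1-/- replicate 1, and 1 and 2 without Lpin1-/- replicate 2. Neither Fasn (1.03, adjusted p = 0.106) nor Srebf1 (0.90, adjusted p = 0.226), the synthase and its transcriptional activator, passed the test. Fasn was called without WT replicate 1 or Lpin1-/- replicate 3 (adjusted p = 0.0308 to 0.0442) and Srebf1 without Lpin1-/- replicate 3 (adjusted p = 0.0455), both with higher values in Lpin1-/- liver. Thrsp, a lipogenesis-associated protein induced by carbohydrate, stood at 13.8, 31.9 and 25.6 RPKM in WT and at 457, 565 and 229 RPKM in Lpin1-/- liver (4.06, SE 0.58, adjusted p = 0.00133). Pklr, the liver pyruvate kinase and a carbohydrate-responsive gene as well, fell from 57.1, 20.7 and 27.4 RPKM to 7.41, 9.14 and 6.298 RPKM (-1.95, adjusted p = 0.00905). Scd1, which makes monounsaturated fatty acids, rose by 2.76 (adjusted p = 0.0295), a call lost without WT replicate 2 or 3 or Lpin1-/- replicate 2 or 3 (adjusted p = 0.0635 to 0.106).

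In cholesterol synthesis and uptake, 2 of 24 genes rose (8.33%, against 5.63% of all genes) and 2 fell (8.33%, against 13.2%) in fasted liver (median 0.36). Rescaling by the median ratio gave 5 and 2, and the counts were 1 and 2 without WT replicate 2, 1 and 1 without WT replicate 3 or Lpin1-/- replicate 2, and 1 and 3 without Lpin1-/- replicate 1. In the same list 17 fell and none rose in refed liver (median -1.90). For 8 of the 24 the change with feeding passed the test. Insig1, which holds the cholesterol sensor in the endoplasmic reticulum, stood in fasted liver at 20.2, 18.2 and 36.01 RPKM in WT and 172, 113 and 56.4 RPKM in Lpin1-/- mice, and in refed liver at 70.99, 58.04 and 98.2 RPKM and 9.13, 10.1 and 11.7 RPKM. The difference was thus 2.07 fasted (adjusted p = 0.00382) and -2.74 refed (adjusted p = 0.0026). Hmgcs1, the cytosolic synthase that feeds the pathway, fell by 1.51 on the log2 scale in fasted liver (SE 0.32, adjusted p = 0.00808).

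Of 15 genes of gluconeogenesis and glycolysis, 3 fell and none rose (median -0.51). Slc2a2, the glucose transporter of hepatocytes, stood at 87.5, 57.8 and 73.8 RPKM in WT and at 14.04, 15.2 and 13.2 RPKM in Lpin1-/- liver (-2.27, SE 0.34, adjusted p = 0.00158). Ldha, lactate dehydrogenase A, stood at 598, 809.8 and 963 and 234, 334 and 353 RPKM (-1.36, adjusted p = 0.00308). The third was Pklr, above. In glycogen metabolism 1 of 12 genes rose (8.33%, against 5.63% of all genes) and 4 fell (33.3%, against 13.2%), with a median of -0.45. The counts were 1 and 2 without WT replicate 1 or 3 or Lpin1-/- replicate 1 or 2. Ppp1r3g, a subunit that targets a phosphatase to glycogen, had one of the largest increases of all, from 0.895, 0.773 and 0.276 RPKM to 34.9, 47.7 and 149 RPKM (5.30, adjusted p = 0.000109). Phka2, a regulatory subunit of phosphorylase kinase, fell by 1.07 on the log2 scale (adjusted p = 0.00564).

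Genes that respond to insulin, FoxO or glucocorticoids rose where they changed. Of 25 tested, 9 rose (36.0%, against 5.63% of all genes) and none fell, with a median of 0.97. The count was 6 without WT replicate 3 and 12 without WT replicate 1. Igfbp1, an insulin-repressed secreted binding protein of IGF-1, stood at 283, 65.6 and 18.8 RPKM in WT and at 961, 1139 and 6961 RPKM in Lpin1-/- liver (4.77, SE 1.02, adjusted p = 0.00905). Ddit4, an inhibitor of mTORC1, had the largest increase among the genes named here, from 34.1, 2.95 and 3.403 RPKM to 247, 386 and 644 RPKM (5.54, adjusted p = 0.00178). Cdkn1a, the cell cycle inhibitor p21, stood at 36.8, 4.66 and 4.53 RPKM and 147, 257 and 208 RPKM (4.24, adjusted p = 0.00392). In these 3 genes WT replicate 1 was the highest WT liver by far, yet below every Lpin1-/- liver. Sesn1, a stress protein that also restrains mTORC1, rose by 2.97 (adjusted p = 0.000399).

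Immediate early genes, which cells switch on within minutes of a signal, held a larger share of genes that rose than any other list examined. Of 20 tested, 15 rose (75.0%, against 5.63% of all genes) and none fell, with a median of 1.80, and 17 rose after rescaling. The count was 11 without WT replicate 3 or Lpin1-/- replicate 3. Gadd45b and Gadd45g, growth arrest and DNA damage-inducible proteins, differed most. Gadd45b stood at 6.48, 4.77 and 6.001 RPKM in WT and at 102, 171 and 222 RPKM in Lpin1-/- liver (4.56, SE 0.37, adjusted p = 0.000109). Gadd45g stood at 22.6, 33.7 and 5.08 RPKM and 330.1, 374 and 715 RPKM (4.71, adjusted p = 0.000836). Jun, a subunit of the AP-1 transcription factor, stood at 8.76, 4.73 and 3.92 RPKM and 13.97, 29.02 and 54.7 RPKM (2.17, adjusted p = 0.00914), and its partner Fos had a difference of 1.29 (adjusted p = 0.00446). Dusp1, a phosphatase that turns off MAP kinases, stood at 10.5, 14.5 and 3.43 RPKM and 47.1, 94.7 and 67.8 RPKM (2.88, adjusted p = 0.00148). No groups overlapped in these 5 genes. The cAMP response element shown above for Dusp1 was also present in Btg2, chosen for mention after its sequence was read. That makes 2 of the 16 genes of the list with a promoter, and the E-box was present in 5. In refed liver 2 of the 20 genes rose and none fell (median 0.19). For 2 of the 20 the change with feeding passed the test, and 13 had an unadjusted p under 0.05 for it.

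The integrated stress response, in which ATF4 drives amino acid synthesis and transport, was split. Of 20 tested, 8 rose and 3 fell (median 0.53). Atf3, a stress-induced transcription factor and an immediate early gene too, stood at 0.810, 0.466 and 0.858 RPKM in WT and at 7.69, 12.7 and 20.9 RPKM in Lpin1-/- liver (3.01, SE 0.34, adjusted p = 0.000399). Cebpb, which pairs with ATF4, rose by 1.71 (adjusted p = 0.00529), and Atf4 itself by 1.000 (adjusted p = 0.00832), although with the 6 fasted libraries alone its adjusted p was 0.0564. Atf5, a related factor, fell from 500.1, 324 and 449 RPKM to 51.5, 86.6 and 94.1 RPKM (-2.46, adjusted p = 0.000765), and Shmt2, a mitochondrial serine hydroxymethyltransferase, fell by 1.53 on the log2 scale (adjusted p = 0.00191). The third decrease was Fgf21. Members of the list thus changed in both directions in the same livers. Among 25 endoplasmic reticulum chaperones 1 rose (4.0%, against 5.63% of all genes) and 3 fell (12.0%, against 13.2%), with a median of -0.14, and 1 fell after rescaling. The chaperone counts were 1 and 1 without WT replicate 3 or Lpin1-/- replicate 1 or 3. Herpud1, which serves degradation of misfolded proteins, rose by 2.23 (adjusted p = 0.00461), whereas Pdia4, a disulfide isomerase, had a difference of -1.40 (adjusted p = 0.00492).

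Enzymes that break down amino acids also changed in both directions. Of 36 tested, 7 rose (19.4%, against 5.63% of all genes) and 5 fell (13.9%, against 13.2%) in fasted liver (median -0.21). In refed liver 12 rose and none fell (median 0.77). The fasted counts were 8 and 2 without WT replicate 1, 3 and 3 without WT replicate 3, and 6 and 3 without Lpin1-/- replicate 1 or 2. Sds and Sdsl, serine dehydratases that yield pyruvate for glucose, rose with Aass, the first enzyme of lysine breakdown. Sds stood at 276, 189 and 111 RPKM in WT and at 1317, 1012 and 809.9 RPKM in Lpin1-/- liver (2.51, SE 0.31, adjusted p = 0.000583). Sdsl and Aass had differences of 1.89 (adjusted p = 0.00467) and 2.04 (adjusted p = 0.00342). Bckdk, the kinase that inactivates branched-chain ketoacid breakdown, and Hibch, an enzyme of valine breakdown, both fell, by 1.15 and by 1.33 on the log2 scale (adjusted p = 0.00337 and 0.00196). Of 8 urea cycle genes, 2 rose (25.0%, against 5.63% of all genes) and 2 fell (25.0%, against 13.2%). The urea cycle counts were 3 and 0 without WT replicate 1, 1 and 1 without WT replicate 2 or Lpin1-/- replicate 1 or 3, 1 and 0 without WT replicate 3, and 2 and 1 without Lpin1-/- replicate 2. Slc25a15, the mitochondrial ornithine carrier, stood at 179, 83.8 and 104 RPKM in WT and at 289, 352 and 441 RPKM in Lpin1-/- liver (1.61, adjusted p = 0.00872).

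In methyl-group metabolism 3 of 17 genes rose (17.6%, against 5.63% of all genes) and 5 fell (29.4%, against 13.2%), with a median of -0.57. The counts were 3 and 3 without WT replicate 3, and 3 and 2 without Lpin1-/- replicate 1. The 3 increases lay on the route that uses methyl groups and clears homocysteine. Nnmt, which methylates nicotinamide, stood at 104, 62.5 and 21.8 RPKM in WT and at 750.2, 618 and 703 RPKM in Lpin1-/- liver (3.69, SE 0.75, adjusted p = 0.00694). Ahcy, which splits S-adenosylhomocysteine, stood at 10.5, 5.703 and 3.69 RPKM and 51.9, 33.96 and 27.2 RPKM (2.39, adjusted p = 0.00163). Cth, which turns cystathionine into cysteine, stood at 492, 324 and 299 RPKM and 2450.1, 1518 and 1772 RPKM (2.37, adjusted p = 0.000399). All 3 were called in every alternative fit, without overlap of the groups. Bhmt, which returns homocysteine to methionine, had a difference of -1.28 (adjusted p = 0.0261), a call lost without WT replicate 1 or 3 or Lpin1-/- replicate 1 or 2 (adjusted p = 0.0516 to 0.0939).

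Zinc and iron genes changed beside the metallothioneins. Of 9 genes of metallothioneins and zinc transport, 4 rose (44.4%, against 5.63% of all genes) and 2 fell (22.2%, against 13.2%). The counts were 2 and 1 without WT replicate 3, and 4 and 1 without Lpin1-/- replicate 1. Slc39a14, an importer of zinc, iron and manganese, stood at 48.1, 17.8 and 19.3 RPKM in WT and at 75.2, 139.8 and 201 RPKM in Lpin1-/- liver (2.29, adjusted p = 0.0116, lost without WT replicate 3 (adjusted p = 0.0538)). Slc30a5, a zinc exporter into the secretory pathway, had a difference of -1.04 (adjusted p = 0.00138). Of 13 iron genes, 2 rose (15.4%, against 5.63% of all genes) and 1 fell (7.69%, against 13.2%). The counts were 1 and 1 without WT replicate 1 or 2 or Lpin1-/- replicate 1 or 3, 0 and 1 without WT replicate 3, and 0 and 2 without Lpin1-/- replicate 2. Slc40a1, ferroportin, which exports iron, stood at 68.6, 46.9 and 86.9 RPKM in WT and at 15.1, 17.9 and 12.97 RPKM in Lpin1-/- liver (-2.04, SE 0.31, adjusted p = 0.00155). Hamp, whose product hepcidin makes cells degrade ferroportin, stood at 62.2, 1691 and 1032 RPKM and 2989, 5144 and 4895 RPKM (3.14, adjusted p = 0.0442), with WT replicate 1 far below the other livers, and the call was lost without WT replicate 1 or 3 or Lpin1-/- replicate 1, 2 or 3 (adjusted p = 0.0529 to 0.111).

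Of 20 genes of bile acid synthesis and transport, 8 fell (40.0%, against 13.2% of all genes), none rose and 12 were not called (median -0.89). Of these, 5 fell without Lpin1-/- replicate 1. The list did not hold Cyp2c70, a bile acid enzyme that was counted among the cytochrome P450 genes and rose (below). Nr1h4, the bile acid receptor FXR, stood at 54.3, 44.4 and 57.9 RPKM in WT and at 20.8, 16.5 and 17.9 RPKM in Lpin1-/- liver (-1.45, SE 0.19, adjusted p = 0.000836). Slco1b2, an uptake transporter for organic anions, and Fgfr4, the receptor through which gut FGF15 lowers bile acid synthesis, had differences of -1.51 (adjusted p = 0.00286) and -1.28 (adjusted p = 0.00517). Cyp7a1, the rate-limiting enzyme of the pathway, stood at 128, 32.7 and 45.8 RPKM and 4.77, 1.56 and 24.2 RPKM (-3.03, adjusted p = 0.0163), and its call was lost without WT replicate 1 or Lpin1-/- replicate 1 or 2 (adjusted p = 0.0532 to 0.0574). In refed liver 1 of the 20 rose and 1 fell, with a median of 0.03.

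Drug-metabolizing enzymes gave calls in both directions. Of 37 cytochrome P450 genes, 4 rose (10.8%) and 6 fell (16.2%), shares not far from those of all genes (5.63% and 13.2%), with a median of -0.17, and the counts were 3 and 3 without WT replicate 3. Of 38 conjugation enzymes 2 rose (5.26%) and 10 fell (26.3%), with a median of -0.27. The counts were 0 and 8 without WT replicate 2, 0 and 5 without WT replicate 3, and 1 and 8 without Lpin1-/- replicate 2 or 3. Cyp2a4, a steroid hydroxylase, stood at 1.004, 3.08 and 1.86 RPKM in WT and at 9.87, 66.3 and 15.4 RPKM in Lpin1-/- liver (3.003, SE 0.66, adjusted p = 0.0101), although it and its near-identical neighbor may share reads. Cyp2c70, which makes muricholic bile acids in mice, rose by 2.14 (adjusted p = 0.00142). Cyp3a25, at 1025, 918 and 909 RPKM in WT and 391, 445 and 499.9 RPKM in Lpin1-/- liver, and Cyp2u1, a fatty acid hydroxylase, had differences of -1.10 (adjusted p = 0.00244) and -1.90 (adjusted p = 0.00942). Of the conjugation enzymes, Gstm4, a glutathione transferase, and Ugt3a1, a glycosyltransferase, had differences of -1.85 (adjusted p = 0.000519) and -1.85 (adjusted p = 0.00163). In the antioxidant list 5 of 22 genes fell (22.7%, against 13.2% of all genes) and none rose (median -0.18). Nfe2l2, the transcription factor NRF2, stood at 24.2, 18.2 and 28.1 RPKM in WT and at 6.501, 6.21 and 4.38 RPKM in Lpin1-/- liver (-1.87, adjusted p = 0.00432), and both subunits of glutamate-cysteine ligase, which begins glutathione synthesis, fell with it. Gclc had a difference of -1.68 (adjusted p = 0.00333) and Gclm one of -1.30 (adjusted p = 0.00155). Nqo1, a further target of NRF2, had a difference of -0.74 (adjusted p = 0.321).

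Of 16 transcription factors of hepatocyte identity tested, 7 fell (43.8%, against 13.2% of all genes), 1 rose and 8 were not called (median -0.87). The number that fell was 3, 3 and 4 without WT replicate 3, Lpin1-/- replicate 1 and WT replicate 1. Foxa3, a forkhead factor that opens liver enhancers, stood at 41.9, 38.9 and 47.3 RPKM in WT and at 4.85, 7.12 and 13.3 RPKM in Lpin1-/- liver (-2.31, SE 0.27, adjusted p = 0.000464). Tbx3, a T-box factor of hepatoblasts and of central hepatocytes, and Nr2f2, an orphan nuclear receptor, had differences of -1.66 (adjusted p = 0.00761) and -1.56 (adjusted p = 0.00529). Hnf4a, which defines the hepatocyte program, stood at 159, 46.9 and 84.3 RPKM in WT and at 52.3, 125 and 139.8 RPKM in Lpin1-/- liver and was not called (adjusted p = 0.833). In the refed livers limma called none of the 16 in either direction (median 0.21), with 3 at an unadjusted p under 0.05. Of 21 metabolic nuclear receptors and their coactivators 1 rose (4.76%, against 5.63% of all genes) and 5 fell (23.8%, against 13.2%), with a median of -0.65. The counts were 0 and 1 without WT replicate 3, and 0 and 3 without Lpin1-/- replicate 2. The partners of lipin 1 were among those that did not pass: Ppara had a difference of -0.93 (adjusted p = 0.136) and Ppargc1a one of 1.36 (adjusted p = 0.0726). Without 1 WT liver either could pass: Ppara was called without WT replicate 2 (adjusted p = 0.0311) and Ppargc1a without WT replicate 1 (adjusted p = 0.00994). Ppara stood at 36.6, 11.9 and 24.5 RPKM in WT and at 9.15, 15.98 and 9.49 RPKM in Lpin1-/- liver.

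Of 21 clock genes 5 rose (23.8%, against 5.63% of all genes) and 1 fell (4.76%, against 13.2%), with a median of 0.41. The counts were 8 and 1 without WT replicate 1, 3 and 2 without WT replicate 2, 2 and 0 without WT replicate 3, and 3 and 1 without Lpin1-/- replicate 2. Ciart, a repressor of the clock, stood at 1.03, 0.351 and 0.310 RPKM in WT and at 25.4, 41.7 and 15.4 RPKM in Lpin1-/- liver (4.11, SE 0.53, adjusted p = 0.000717). Nfil3, a repressor of the D-box, stood at 30.9, 19.3 and 19.5 RPKM and 124, 114 and 139.6 RPKM (2.41, adjusted p = 0.00223). The core activators Arntl (0.89, adjusted p = 0.216) and Clock (-0.97, adjusted p = 0.118) did not pass.

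Among RNA-binding proteins of splicing, 5 of 20 SR proteins and their kinases rose (25.0%, against 5.63% of all genes) and 1 fell (median 0.19), with 2 and 0 without WT replicate 3 or Lpin1-/- replicate 1, and 3 and 1 without Lpin1-/- replicate 2. Tra2a, a transformer-2 homolog that promotes exon inclusion, stood at 5.64, 3.62 and 4.98 RPKM in WT and at 11.1, 10.01 and 8.39 RPKM in Lpin1-/- liver (0.92, SE 0.20, adjusted p = 0.00934), with an adjusted p of 0.0612 in the 6 fasted libraries alone. Of 26 hnRNP proteins 1 rose (3.85%, against 5.63% of all genes), Hnrnpdl (1.35, adjusted p = 0.00133), and none fell (against 13.2%). Of 20 U2 snRNP and branch site factors 2 rose and none fell, but rescaling by the median ratio gave 4 and 1, and the number that rose was 0 without WT replicate 2 or 3 or Lpin1-/- replicate 2, and 1 without Lpin1-/- replicate 3. Of the 8 splicing factors that the study chose from these same samples, 1 rose and 3 fell, which is not independent evidence of a direction, and the counts were 1 and 1 without WT replicate 1 or Lpin1-/- replicate 2, 1 and 0 without WT replicate 3, and 0 and 0 without Lpin1-/- replicate 1.

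Zinc finger genes of the Zfp series, many of them transcriptional repressors, fell more often than they rose. Of 227 tested 43 fell and 8 rose, a share of 18.9% lower against 13.2% over all genes, with a median of -0.22 against -0.14. The count that fell was 16 without WT replicate 3, 21 without Lpin1-/- replicate 1 and 20 without Lpin1-/- replicate 2. Zfp207, a spindle and splicing-associated zinc finger protein, stood at 34.3, 28.2 and 31.4 RPKM in WT and at 9.64, 8.68 and 12.1 RPKM in Lpin1-/- liver (-1.54, SE 0.16, adjusted p = 0.000305). Of 22 histone genes 4 rose (18.2%, against 5.63% of all genes) and none fell (median 0.32). H3f3b, which encodes a replication-independent H3 histone, stood at 192, 219 and 209 RPKM in WT and at 1372, 1761 and 1246 RPKM in Lpin1-/- liver (2.80, SE 0.19, adjusted p = 4.12e-05), and the linker histone H1f0 rose by 1.23 (adjusted p = 0.00747). Cytosolic ribosomal proteins had positive differences in 77 of 79 genes (median 0.47) but 2 calls, both higher (0 without WT replicate 1 or 3 or Lpin1-/- replicate 1, and 5 without WT replicate 2). Their median fell to 0.15 without WT replicate 1, when 1 gene was called lower, and to 0.14 without Lpin1-/- replicate 1. It was -0.16 with both left out, and 0.58 to 0.72 without any other single fasted liver. For 78 nuclear-encoded genes of the respiratory chain and ATP synthase limma called none in either direction (median 0.16). Of those 78, 2 were lower at an unadjusted p under 0.05 and limma voom on the recovered reads called none.

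**Figure D3:**
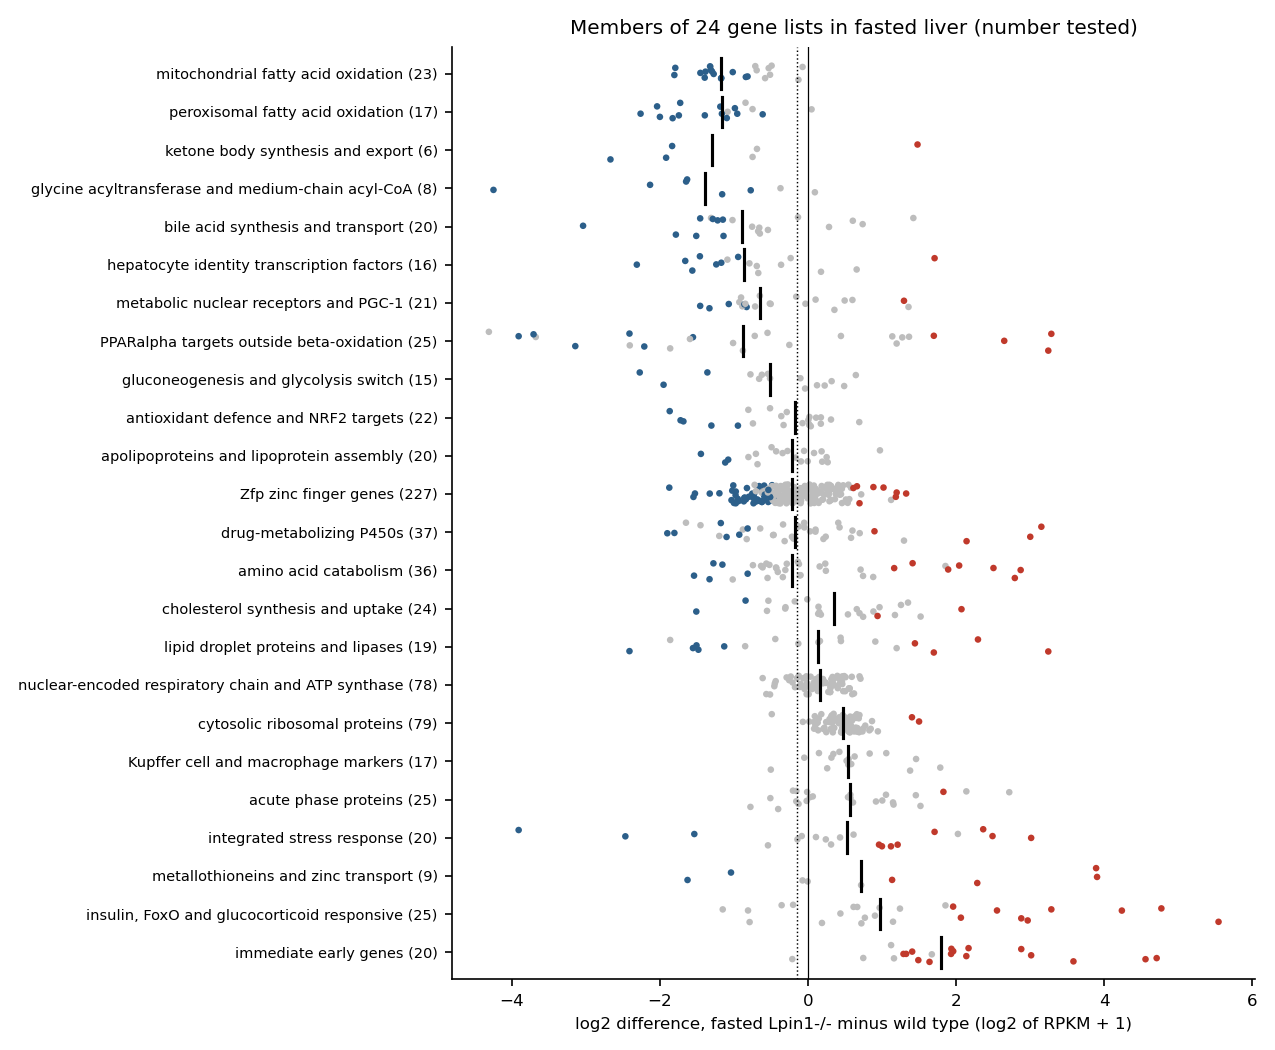
Differences between fasted Lpin1-/- and WT liver (log2 of RPKM + 1, horizontal axis) of every tested member of 24 gene lists, with the number tested beside each name, genes that rose in red, genes that fell in blue, genes not called in gray, and a bar at each list's median. The dotted line is the median of all genes, -0.14, and the medians run from -1.39 for the glycine acyltransferase list to 1.80 for the immediate early genes.

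Markers of other cell types were summed in each liver. Kupffer cell and macrophage markers ran from 232 to 481 RPKM in WT and from 432 to 1680 RPKM in Lpin1-/- liver, and limma called none of the 17, nor was any at an unadjusted p under 0.05 or called by limma voom. Endothelial markers ran from 43.2 to 99.1 RPKM in WT and from 103 to 125 RPKM in Lpin1-/- liver. Of these 13 genes 3 rose (23.1%, against 5.63% of all genes), and 1 rose without WT replicate 2 or Lpin1-/- replicate 2 or 3. Stellate cell markers and collagens ran from 119 to 305 RPKM in WT and from 356 to 487 RPKM in Lpin1-/- liver, with 2 of 20 rising (1 without WT replicate 2 or 3 or Lpin1-/- replicate 1, 2 or 3). The endothelial and stellate sums did not overlap between the genotypes, and their part in the differences above was not tested. Vwf, the von Willebrand factor of endothelium, stood at 0.637, 0.242 and 0.406 RPKM in WT and at 8.599, 5.59 and 5.29 RPKM in Lpin1-/- liver (2.37, adjusted p = 0.000109). Biliary markers (216 to 280 against 151 to 595 RPKM), lymphocyte and neutrophil markers (15.3 to 126 against 51.9 to 180 RPKM) and erythroid markers (575 to 853 against 466 to 1940 RPKM) overlapped. Only 1 of 10 adipocyte and pancreas markers passed the expression filter. Lpin1-/- replicate 1 held the highest macrophage, biliary, lymphocyte and erythroid sums, and without it Cd14, the lipopolysaccharide coreceptor, which stood at 3.59, 2.36 and 3.49 RPKM in WT and at 201, 28.3 and 41.1 RPKM in Lpin1-/- liver, was no longer called (adjusted p = 0.0874, against 0.0231 with it), nor was it without WT replicate 2 or 3 (adjusted p = 0.0519 and 0.0688).

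In refed liver, Lpin1-/- and WT mice differed in 299 genes that were higher (2.6%) and 468 that were lower (4.07%). The genotype difference itself changed with feeding for 147 genes (1.28%), of which 128 were called in fasted liver. Of the 147, 103 were called in fasted liver alone, 69 lower and 34 higher, 18 in refed liver alone, 7 in both in the same direction and 18 in both in opposite directions. The other one was called in neither. Among the strongest were genes near equality once the mice had eaten. Anks4b, an ankyrin-repeat scaffold of liver and gut, stood fasted at 14.1, 12.3 and 19.8 RPKM in WT and 1.06, 1.01 and 0.910 RPKM in Lpin1-/- mice and refed at 24.4, 25.2 and 30.4 RPKM and 19.8, 27.2 and 22.5 RPKM. Its difference was -3.01 fasted and -0.20 refed, a change of 2.81 (adjusted p = 0.00208). Gk, glycerol kinase, had differences of -1.73 and 0.02 (change 1.75, adjusted p = 0.00664). H3f3b had 2.80 and 0.05 (change -2.75, adjusted p = 0.00207).

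Genes with opposite calls in the 2 states were Insig1 and Slc20a1 among the 7 that were higher fasted and lower refed, and Zfp207 among the 11 that were lower fasted and higher refed. Slc20a1, a phosphate transporter, stood fasted at 8.47, 3.98 and 4.21 RPKM in WT and 23.2, 25.7 and 24.97 RPKM in Lpin1-/- mice and refed at 12.99, 15.7 and 17.2 RPKM and 6.91, 6.07 and 5.004 RPKM (change -3.25, adjusted p = 0.00258). Zfp207 stood refed at 26.9, 26.7 and 27.8 RPKM in WT and 57.1, 66.7 and 58.8 RPKM in Lpin1-/- mice (change 2.68, adjusted p = 0.00101). The number of genes whose difference changed with feeding was the least stable count: it was 41 without fasted WT replicate 3 and 321 after rescaling.

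**Figure D4:**
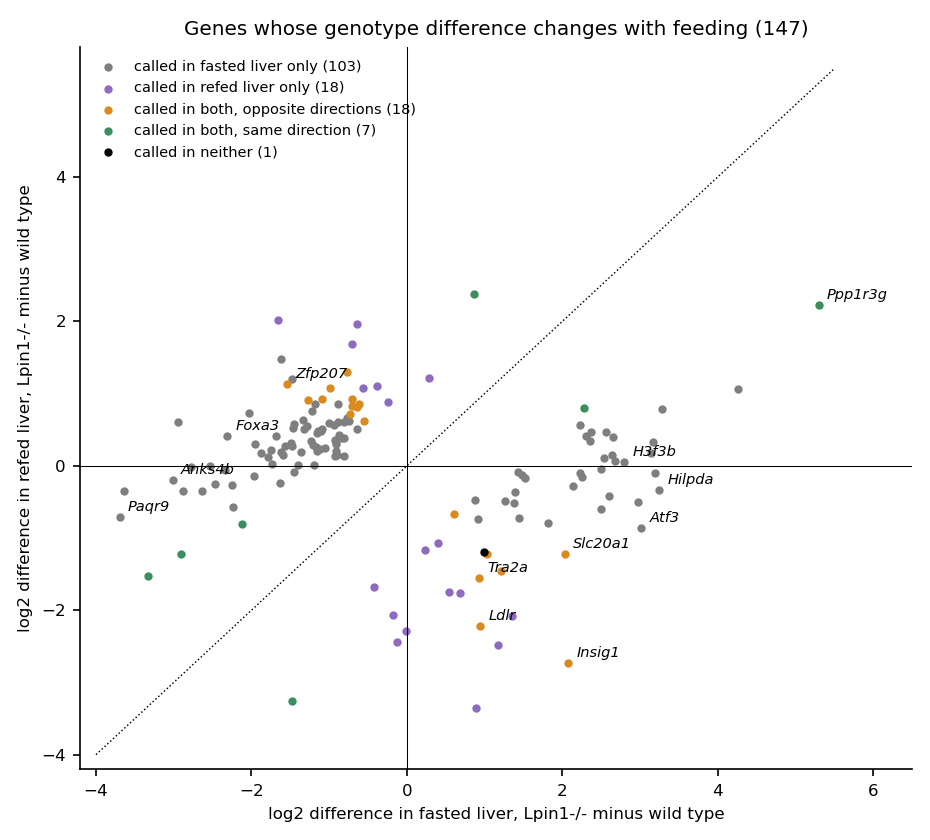
Genotype difference (log2 of RPKM + 1) in refed liver (vertical axis) against that in fasted liver (horizontal axis) for the 147 genes whose difference changed with feeding, colored by the state in which each was called. The 18 genes with opposite calls lie in the upper left and lower right corners, with Insig1 at 2.07 fasted and -2.74 refed.

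The genes that changed were spread over the genome. The share called ran from 15.2% of tested genes on the X chromosome to 21.8% on chromosome 9 and was 18.6% on chromosome 12, which holds Lpin1 (chr12:16535669-16610966, minus strand, GRCm38). Of the 6 tested genes nearest to Lpin1, 3 on each side, 1 was called. E2f6, a transcriptional repressor of the E2F family 200 kb away at chr12:16810963-16839742, stood at 8.36, 7.68 and 9.12 RPKM in WT and at 2.54, 4.301 and 4.44 RPKM in Lpin1-/- liver (-1.003, SE 0.23, adjusted p = 0.0121). Its adjusted p was 0.0552 without WT replicate 3 and 0.0544 with the 6 fasted libraries alone. Nbas, a protein of traffic between the Golgi and the endoplasmic reticulum, had a difference of -0.54 (adjusted p = 0.0573, called without WT replicate 2 (adjusted p = 0.0305)).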

How the data were processed

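RNA-seq of liver from 12 mice in 4 groups of 3 was analyzed, and the 6 fasted libraries form the comparison. The authors deposited RPKM values for 22456 genes, made, per the submitters' notes, with HISAT2 2.0.5, HTSeq 0.6.0 and DESeq2 1.20.0 on GRCm38. The libraries were stranded and paired-end. No column of another series was present, and the tables of splicing events and enriched terms, which hold the authors' own comparisons, were not used.

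Low values fell on whole multiples of 1 read, so whole reads were recovered from the RPKM values for all 11507 tested genes (relative tolerance 1e-10). RPKM is not a count, so the main test was limma 3.58.1 (R 4.3.3) with a trend on log2(RPKM + 1), run on genes whose average across the 12 libraries reached 0.5 RPKM and fitted on all 4 groups, with contrasts for fasted genotype, refed genotype and their difference. P-values were adjusted over all genes by Benjamini-Hochberg at 0.05. Fold changes on this scale understate those of low genes. With 3 against 3, an exact permutation test cannot go below 0.1. Tables were made with Python 3.11.15. The test was checked on simulated data.

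Members and gene lists (57) were chosen with earlier results of these data known. A gene could be named if it was a lipin, among the 12 largest changes of each direction without overlap, among the 8 most abundant called, a listed key gene, among the 3 smallest p of a list and direction, among the 5 smallest interaction p, or a neighbor of Lpin1, and some genes that met the rule are not reported here. Other settings tried were no filter or an average of 5 RPKM, a pseudocount of 0.1, median-ratio rescaling, a replicate block, the 6 fasted libraries alone, no trend, library quality weights, each library left out, a fold threshold and, chosen after seeing the data, both replicates 1 left out and limma voom on the recovered reads. The replicate numbers did not pair the samples. Promoters came from RefSeq (GRCm38.p6), and gene positions from GENCODE.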

Additional observations from a re-analysis of the deposited data

Results flagged for a closer look

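For the genes named here, those below had a genotype difference that changed with feeding in limma's test of the change itself (adjusted p under 0.05). Each value is the refed difference minus the fasted difference on the log2(RPKM + 1) scale, and none was weighed for a cause. Groups of 3 livers were too small for a test of single outlying samples.

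The change was negative, and held in every alternative fit that gives the test, for Atf3 -3.88 (3.01 fasted, -0.87 refed), H3f3b -2.75 (2.80 fasted, 0.05 refed), Hilpda -3.58 (3.25 fasted, -0.34 refed), Insig1 -4.81 (2.07 fasted, -2.74 refed), Sesn1 -3.47 (2.97 fasted, -0.51 refed), Slc16a6 -1.61 (1.48 fasted, -0.13 refed), Slc20a1 -3.25 (2.03 fasted, -1.22 refed), Tra2a -2.48 (0.92 fasted, -1.56 refed) and Vwf -1.91 (2.37 fasted, 0.46 refed). It was positive and held likewise for Anks4b 2.81 (-3.01 fasted, -0.20 refed), Foxa3 2.72 (-2.31 fasted, 0.41 refed), Gk 1.75 (-1.73 fasted, 0.02 refed), Nr1h4 2.04 (-1.45 fasted, 0.58 refed) and Zfp207 2.68 (-1.54 fasted, 1.13 refed). Their adjusted p ran from 0.00101 (Zfp207) to 0.0104 (Slc16a6). For Gdf15 the change was -3.09 (2.49 fasted, -0.60 refed, adjusted p = 0.046), and it was not called in 14 of 21 alternative fits, with an adjusted p of 0.128 without refed Lpin1-/- replicate 3. For Paqr9 the change was 2.98 (-3.69 fasted, -0.71 refed, adjusted p = 0.019), and it was not called in 3 of 21 alternative fits, with an adjusted p of 0.0749 without refed Lpin1-/- replicate 2. For Ppp1r3g the change was -3.07 (5.30 fasted, 2.23 refed, adjusted p = 0.0372), and it was not called in 13 of 21 alternative fits, with an adjusted p of 0.346 with limma voom on recovered reads. For Slc40a1 the change was 2.77 (-2.04 fasted, 0.73 refed, adjusted p = 0.0157), and it was not called in 1 of 21 alternative fits, with an adjusted p of 0.0595 without refed Lpin1-/- replicate 2. For Txnip the change was -2.49 (3.29 fasted, 0.79 refed, adjusted p = 0.0398), and it was not called in 13 of 21 alternative fits, with an adjusted p of 0.0932 without refed Lpin1-/- replicate 3.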

How the results depend on the processing

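The 2168 altered genes (648 higher, 1520 lower) and the 147 whose difference changed with feeding were recomputed in 22 and 21 alternative fits. With the 6 fasted libraries alone the counts were 1011 altered, 366 higher and 645 lower, and the 3 counts became 5278, 1788 and 3490 with library quality weights, which also gave 2539 changes with feeding. Requiring a log2 fold change above 1 as well left 1162, 407 and 755. A mean of at least 5 RPKM left 428 higher among fewer genes tested. The changes with feeding numbered 83 without a filter and 321 after median-ratio rescaling. With a replicate block the counts were 1813 altered, 556 higher, 1257 lower and 81 changed with feeding, but same-numbered fasted livers deviated in opposite directions (correlations of -0.474, -0.374 and -0.226), so the numbers did not pair the samples. Leaving out 1 library at a time gave 1037 to 2313 altered, 362 to 739 higher, 675 to 1812 lower and 30 to 191 changed with feeding; WT replicate 3 set the lowest fasted counts, and fasted Lpin1-/- replicate 1 and replicate 2 gave 918 lower and 426 higher. Some of these fits had fewer genes tested or fewer samples, and the causes of the shifts were not tested.

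Of 114 called genes named here, 99 were called in every alternative fit and 15 were lost in at least 1. No called gene changed direction. Among uncalled genes near 0, 2 did: Lpin3 was at -0.000975 without WT replicate 2 and -0.0173 without Lpin1-/- replicate 3, and Hnf4a was at -0.251, -0.00241 and -0.0836 without WT replicate 2, Lpin1-/- replicate 2 and Lpin1-/- replicate 3. Over all single omissions Lpin3 ran from -0.0173 to 0.209 and Hnf4a from -0.251 to 0.618. Of 1288 recomputed list counts 255 moved by over 1.5 times. The lowest read number of each tested gene among the 6 fasted libraries had a median of 517. Few reads limit how small a difference could be seen in low genes, and this median does not give that limit.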

Other observations

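Further gene groups showed isolated differences. Among 20 apolipoprotein and lipoprotein assembly genes 3 fell and none rose (median -0.22), and the one that held in every alternative fit was Apon, apolipoprotein N, at 759, 947 and 840.1 RPKM in WT and 331, 325 and 277 RPKM in Lpin1-/- liver (-1.44, SE 0.20, adjusted p = 0.000901). Without WT replicate 3 or Lpin1-/- replicate 1, 1 gene of that list fell. Of 36 genes of autophagy and lysosome 3 rose (8.33%, against 5.63% of all genes) and 2 fell (5.56%, against 13.2%), with a median of 0.03. The counts were 4 and 1 without WT replicate 1, 2 and 0 without WT replicate 3, 3 and 0 without Lpin1-/- replicate 1, and 2 and 1 without Lpin1-/- replicate 2. Beside Ctsl they included Map1lc3b, a marker of autophagosomes, at 148, 166 and 155 RPKM in WT and 386, 320.1 and 429 RPKM in Lpin1-/- liver (1.26, adjusted p = 0.0012). Of 25 acute phase genes 1 rose (4.0%, against 5.63% of all genes) and none fell (against 13.2%), with a median of 0.57. Of 12 carboxylesterases limma and limma voom called none, with 2 higher at an unadjusted p under 0.05. Tiparp, a target of the aryl hydrocarbon receptor, rose by 2.35 (adjusted p = 0.00278), the 1 call among 5 such targets.

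A pair of interferon-inducible GTPases was among the 12 largest decreases. Iigp1 stood at 122.7, 131 and 106 RPKM in WT and at 4.95, 22.8 and 6.68 RPKM in Lpin1-/- liver (-3.55, SE 0.42, adjusted p = 0.000477). Gm4951 stood at 35.97, 24.4 and 31.8 RPKM and 0.619, 3.68 and 1.06 RPKM (-3.65, SE 0.34, adjusted p = 0.00017). Both calls held in every alternative fit, and a lack of overlap was a condition of this ranking. The genes are similar in sequence and may share reads. Other large differences without a list of their own were those of Paqr9, a membrane receptor of the progestin and adipoQ family, at -3.69 (adjusted p = 0.000181), and of Fam107a, an actin-associated protein, at 4.26 (adjusted p = 0.000399).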
